A study of Homo sapiens with 2 samples.

Results

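The FGF receptor genes FGFR3, FGFR1, FGFR2, FGFR4 and FGFRL1 and the ligand gene FGF2 were followed in cultured H1299 cells, a long-established line from a human lung carcinoma of the non-small cell type. All probe sets annotated to these 6 genes were taken, which gave 36 of the 49395 probe sets on the array and 6 of 18132 genes. FGFR3 was chosen by its log2 difference between these same arrays, and the other genes were added as its family and a ligand. The differences below are therefore a description, with no test.

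One sample came from cells that had received the pcDNA-EGR1 plasmid, and the other from cells given the pcDNA3.1 vector without an insert. Both were transfected transiently with a lipid reagent and harvested after 48 hours, and the share of cells that took up a plasmid is not given, so each value averages transfected and untransfected cells. More RNA in few cells and a little more in many cannot be told apart. Each group was 1 Affymetrix array, so no difference has a replicate check, and the number of arrays limits the precision.

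FGF receptors are receptor tyrosine kinases with immunoglobulin-like domains outside the cell and a split kinase domain inside. FGF ligands bind them together with heparan sulfate, the receptors pair and phosphorylate one another, and the adaptor FRS2 carries the signal to the RAS, MAP kinase and PI3 kinase pathways. FGFRL1 has the extracellular part but no kinase domain. FGFR1 amplification in squamous lung carcinoma and FGFR3 fusions with TACC3 in several carcinomas have made the family a drug target.

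The unit throughout is the log2 level that the authors obtained with RMA, and a difference is EGR1 array minus empty-vector array. RMA levels carry no detection call, and levels of different probe sets are not relative amounts of RNA. A floor at the 40th percentile of mean level, 5.22 on the log2 scale, marks dim probe sets. As a yardstick of probe error, the difference varied between probe sets of one gene with a pooled SD of 0.15 over 7113 genes. Only probe sets past the floor entered it, and the FGFR2 probe sets, all under the floor, had an SD of 0.21. Error between cultures, between transfections and between arrays is not part of the pooled SD. In the check of the transfected gene, EGR1 probe sets did not move together. Probe set 11717861_a_at read 11.43 in the EGR1 array and 7.70 in the empty-vector array, and 11751643_x_at read 9.92 in the EGR1 array and 7.17 in the empty-vector array. The remaining 4, at 9.70 to 10.51 in the empty-vector array, had differences from -0.39 to -0.20. They include the brightest, 11717860_a_at, at 10.12 in the EGR1 array and 10.51 in the empty-vector array. By that probe set EGR1 was lower in the EGR1 array.

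FGFR3, best known as a brake on bone growth and as an oncogene of bladder cancer and myeloma, had the highest difference of the family and was represented by 2 probe sets. Probe set 11755786_a_at read 6.98 in the EGR1 array and 5.04 in the empty-vector array, a log2 difference of 1.94 or 3.83-fold. Probe set 11717969_a_at read 5.43 in the EGR1 array and 5.08 in the empty-vector array, a difference of 0.35 or 1.28-fold. Both pointed the same way, both stood above the floor in the EGR1 array but below it in the empty-vector array, and they gave different sizes. Both carry the suffix _a_at, which marks probes shared by transcripts of one gene, and the annotation derives them from different GenBank sequences. Where either lies in the FGFR3 transcript was not established here.

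The probe sets were 1.58 apart. Since FGFR3 was chosen by the higher of these values, its standing among other genes describes the choice. Of 4739 genes with exactly 2 probe sets, 4 had differences at least this far apart, and the other 3 were MGP, NPTX1 and NKX2-2, named here after their values were seen. In each of those 3 genes, too, one probe set differed little, by 0.08 to 0.18, and the other by 2.13 to 3.29. The mean of both FGFR3 probe sets was 1.14 (SD 1.12 between 2 probe sets), and it includes the value that chose the gene. The probe set not used for the choice had 0.35.

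**Figure D1:**
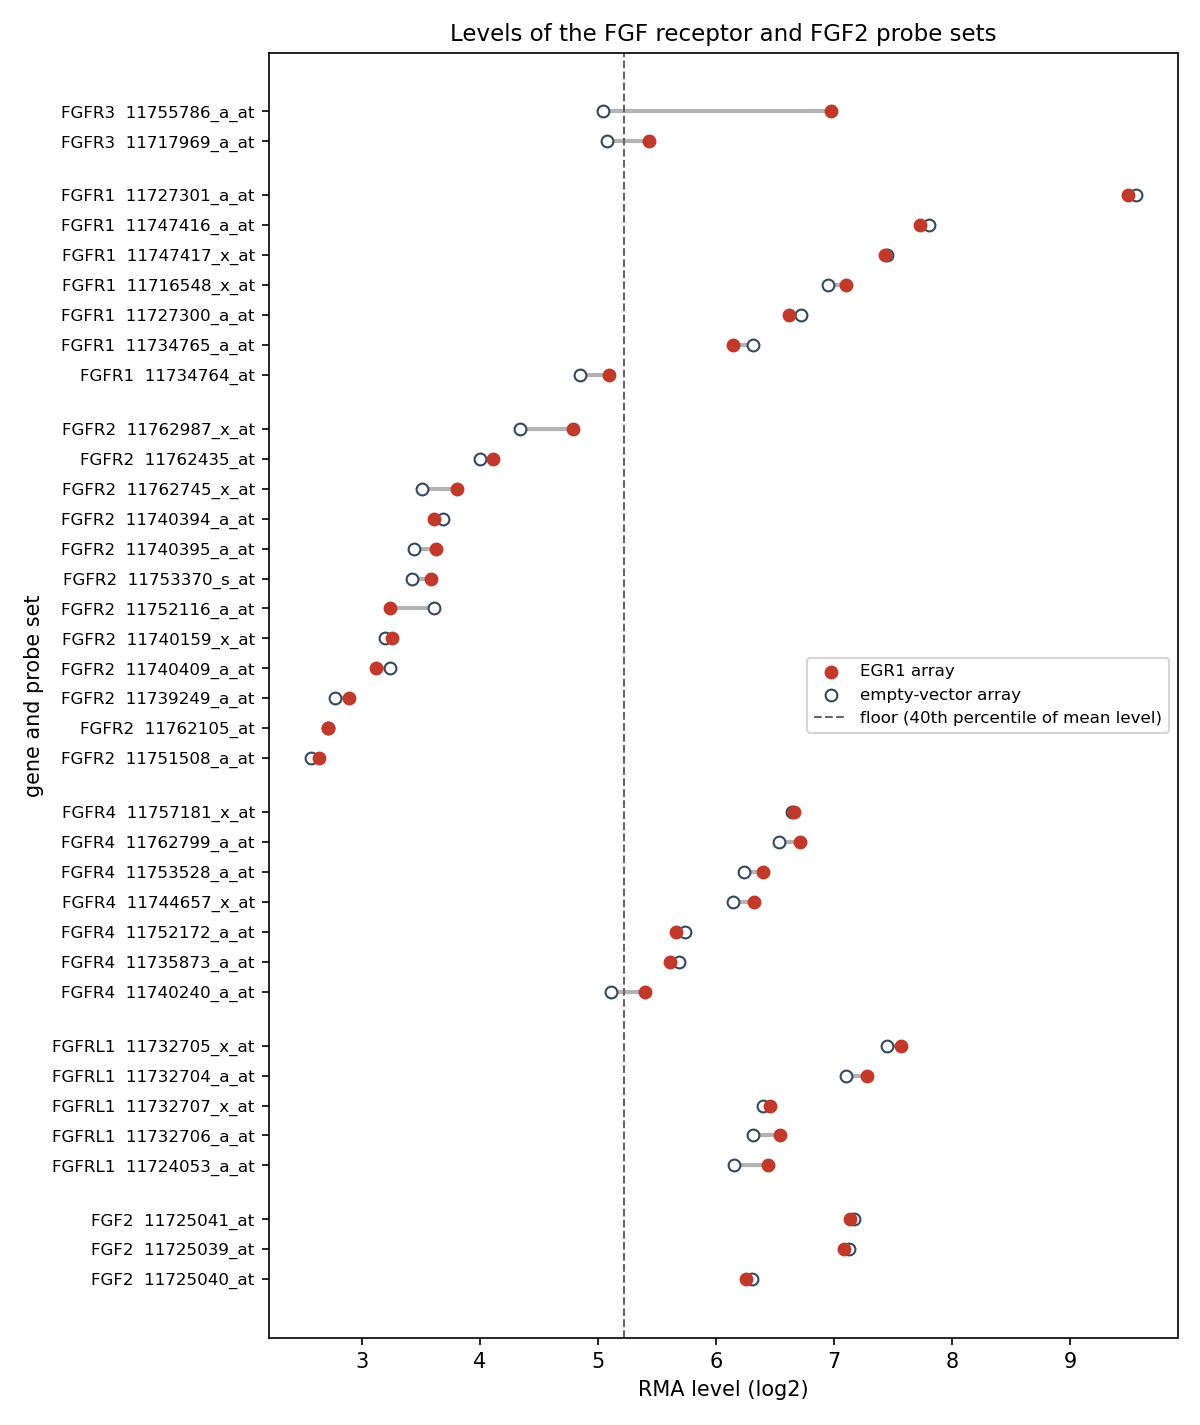
RMA level on the log2 scale (x axis) of each of the 36 probe sets (y axis), with filled points for the EGR1 array, open points for the empty-vector array, and a dashed line at the floor of 5.22. FGFR3 probe set 11755786_a_at shows the longest line, between 6.98 and 5.04, whereas the FGF2 points nearly coincide and all FGFR2 points stand below the floor.

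Among all 12652 genes past the floor, with each gene read by its brightest probe set, FGFR3 held rank 10 in the order of differences. The next genes above it were TMT1B at 1.94, the keratin gene KRT8 at 2.00, the Notch-pathway repressor gene HEY1 at 2.05 and SERPINA1, which encodes alpha-1-antitrypsin, at 2.12. The next below were SBSN at 1.87, the organic cation transporter gene SLC22A4 at 1.80, KRT18 at 1.76 and the transglutaminase gene TGM2 at 1.72. With 2 arrays, likeness to FGFR3 means only a similar difference. Genes at or beyond 2-fold higher made up 0.348% of those past the floor, and FGFR3 was the 1 family gene among the 5 past the floor that did so. Over all probe sets the share was 0.229%, and of the 36 family probe sets 1 was at or beyond 2-fold. FGFR3 was chosen by its difference and was past the floor through its EGR1-array level, so its rank and these counts describe the choice.

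The FGFR3 promoter is shown because EGR1, a zinc-finger factor, binds the GC-rich consensus GCGNGGGCG. In the RefSeq window (GRCh38.p14, 250 bases before to 50 after the start), both strands were searched for these letters. The 250 bases before the FGFR3 start, chr4:1793043-1793292 on the plus strand, follow, with both matches in capitals. They lie on the opposite strand and so read as the reverse complement of GCGGGGGCG.
FGFR3: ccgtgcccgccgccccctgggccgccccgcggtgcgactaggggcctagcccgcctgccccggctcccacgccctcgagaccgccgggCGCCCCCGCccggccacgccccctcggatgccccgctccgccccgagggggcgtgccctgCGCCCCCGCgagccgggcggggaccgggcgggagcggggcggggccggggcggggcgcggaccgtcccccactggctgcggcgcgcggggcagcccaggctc

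The matches span bases 162 to 154 and 102 to 94 before the start. The same window held 8 matches to GGGCGG, the core of the GC box bound by SP1, and the first EGR match overlapped 1 of them whereas the second overlapped none. FGFRL1 had 1 match, FGFR2 had 2 matches in 1 of its 5 windows, and FGF2 and both windows of FGFR4 had none. FGFR1 was not searched. One match from each gene that had any is given with 10 bases on either side, as the gene reads. Read on the strand of the match, the free position of the consensus is G in the FGFR3 and FGFR2 matches shown and C in FGFRL1. The FGFR2 match not shown also has C there.
FGFR3 second match, chr4:1793181-1793209, plus strand: gcgtgccctgCGCCCCCGCgagccgggcg
FGFRL1, chr4:1012340-1012368, plus strand: tccgcctggaGCGCGGGCGgggagggcct
FGFR2 first match, chr10:121598463-121598491, minus strand: ccgcgaggagGCGGGGGCGgcggcggcgg

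The consensus is common in GC-rich sequence. Of 35116 promoter windows 9.43% held it at least once and 1.59% more than once, and among the 924 windows with 80% GC or more the share was 58.8%. The FGFR3 window has 86.3% GC, against 68.3% in the FGFRL1 window and 74.7% in the FGF2 window. The FGFR2 window with matches has 79.3%, and the FGFR4 windows, which have no match, have 78.7% and 57.3%. A match describes letters and does not show binding.

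FGFR1, the receptor most often linked to mesenchymal cells and to lung cancer, was measured by 7 probe sets and showed no shared direction. Its brightest probe set, 11727301_a_at, read 9.49 in the EGR1 array and 9.56 in the empty-vector array, a difference of -0.07. The 4 _a_at probe sets all lay slightly below 0, from -0.16 to -0.07, while the other 3 ran from -0.02 to 0.24. Of the 7 differences 3 exceeded the pooled SD of 0.15, and 2 of these were positive. The highest of them, 0.24, belonged to 11734764_at, the 1 FGFR1 probe set below the floor, at 5.09 in the EGR1 array and 4.85 in the empty-vector array.

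FGFR4, a receptor with high affinity for FGF19 in liver, had all 7 probe sets past the floor by their mean level. Its brightest probe set, 11757181_x_at, read 6.66 in the EGR1 array and 6.64 in the empty-vector array, a difference of 0.02. The next brightest, 11762799_a_at, read 6.71 in the EGR1 array and 6.53 in the empty-vector array, a difference of 0.18. The 7 differences ran from -0.08 to 0.29, with 5 above 0 and 2 below, so the size and the sign depend on the probe set. The highest, 0.29, came from 11740240_a_at, the dimmest of the 7, which read 5.40 in the EGR1 array and 5.11 in the empty-vector array.

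FGFR2, whose splice forms serve epithelial and mesenchymal cells, was dim in both arrays. None of its 12 probe sets reached the floor in either array, and their levels ran from 2.64 to 4.79 in the EGR1 array and from 2.56 to 4.34 in the empty-vector array. The brightest, 11762987_x_at, read 4.79 in the EGR1 array and 4.34 in the empty-vector array, a difference of 0.44. Another, 11752116_a_at, went the other way at 3.24 in the EGR1 array and 3.61 in the empty-vector array, a difference of -0.37. Of the 12, 8 were above 0, 3 were below and 1 was identical to the last digit in both arrays, with a median of 0.09. Levels this dim do not show whether FGFR2 was expressed.

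FGFRL1, the kinase-less family member that can bind FGF ligands, was slightly higher in the EGR1 array by each of its 5 probe sets. The brightest, 11732705_x_at, read 7.57 in the EGR1 array and 7.45 in the empty-vector array, a difference of 0.12. The dimmest, 11724053_a_at, read 6.44 in the EGR1 array and 6.15 in the empty-vector array, a difference of 0.29. Over the 5 probe sets the mean difference was 0.17 (SD 0.09 between probe sets). Of the 5, 3 exceeded the pooled SD of 0.15, which is a spread of single probe sets and not the error of a mean. The 3 _a_at probe sets ran from 0.18 to 0.29 and the 2 _x_at probe sets, which can bind similar transcripts, from 0.06 to 0.12. Each _x_at probe set was lower than the _a_at probe set derived from the same GenBank sequence, at 0.12 against 0.18 and 0.06 against 0.23.

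FGF2, a heparin-binding ligand of these receptors and a growth factor for many cell types, was nearly level. Its 3 probe sets read 7.13, 7.08 and 6.25 in the EGR1 array, against 7.17, 7.13 and 6.30 in the empty-vector array. The differences were -0.04, -0.05 and -0.05, all below the pooled SD. With a spread of 0.01 (SD over 3 probe sets) these were the most uniform probe sets of any family gene.

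Across the whole family 22 probe sets were above 0, 13 below and 1 identical, and 45.9% of all probe sets on the array were above 0. Of the 36, 15 were higher by more than the pooled SD, where 21.3% of all probe sets were, and 2 were lower by more than it. In either direction 17 of the 36 exceeded it, beside 43.1% of all probe sets. The 15 include both FGFR3 probe sets, and 1 of these chose the gene. Some of the 15, in FGFR2 and FGFR1, were under the floor, where the pooled SD was not taken. The median over the 36 was 0.09, and 0.07 without FGFR3, beside 0 over all probe sets. Besides FGFR3, the 34 probe sets ran from -0.37 to 0.44, both extremes in FGFR2 and below the floor. Of the 36 probe sets 23 were past the floor and 13 were not, namely all those of FGFR2 and 1 of FGFR1.

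**Figure D2:**
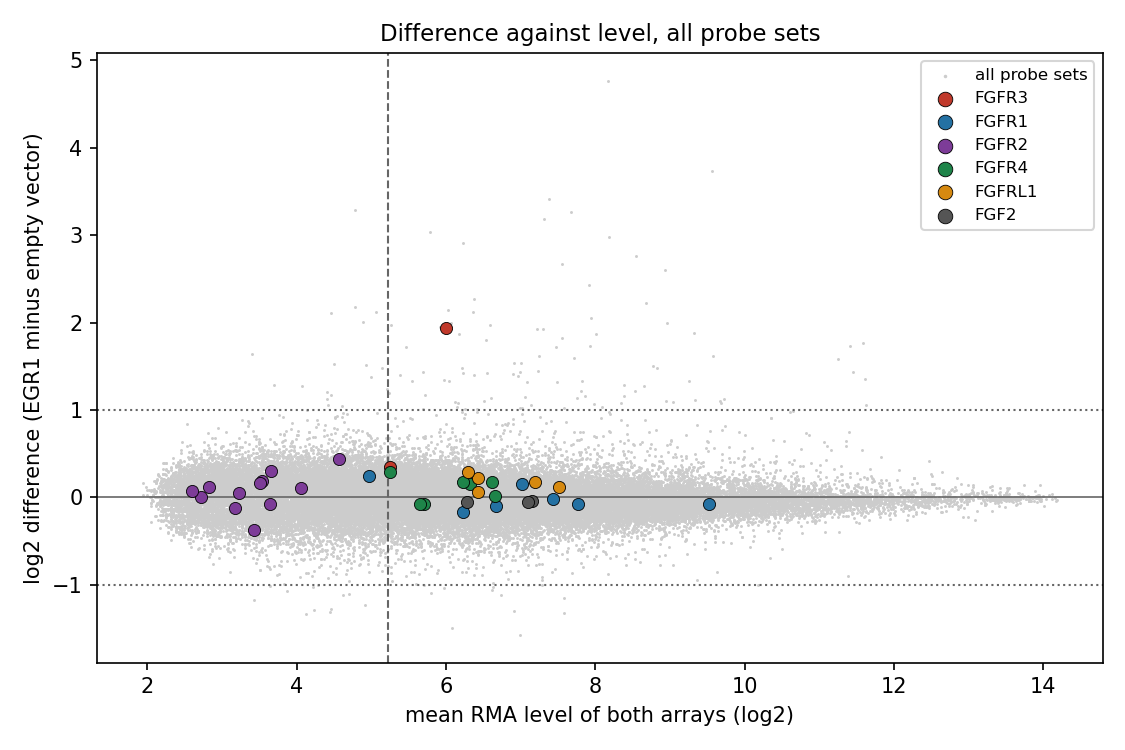
Log2 difference, EGR1 minus empty vector (y axis), against the mean RMA level of both arrays on the log2 scale (x axis), with all 49395 probe sets in grey and the family in colour. Dotted lines mark a difference of 1 and -1 and the dashed line marks the floor, and FGFR3 probe set 11755786_a_at at 1.94 is the 1 coloured point beyond the dotted lines.

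FGFR3 and FGFRL1 both lie on chromosome 4, in the same terminal region, so the genes next to them were read as well. Among the 8 genes with a value nearest to FGFR3 in RefSeq order, 4 on either side, the differences ran from -0.23 to 0.03 and all 8 were past the floor. TACC3, a spindle protein gene directly before FGFR3, read 8.97 in the EGR1 array and 9.20 in the empty-vector array. LETM1, a mitochondrial inner membrane protein gene directly after it, read 8.95 in the EGR1 array and 9.16 in the empty-vector array. Neither neighbour was higher in the EGR1 array. Around FGFRL1 the 8 neighbours ran from -0.22 for SPON2 to 0.30 for IDUA, a lysosomal enzyme gene below the floor.

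FGFR3 was also placed among the receptor tyrosine kinases, as a description, since its difference chose it. Of 58 listed genes 56 were measured and 36 were past the floor, and FGFR3 was the 1 at or beyond 1.5-fold in either direction, where 0.941% of all such genes were 1.5-fold higher and 0.229% were 1.5-fold lower. It was past the floor through its level in the EGR1 array, and by its second probe set (0.35) it would stand below the next genes. These were MERTK, a receptor for engulfment of dying cells, at 0.42, and the collagen receptor gene DDR1 at 0.36. The 4 DDR1 probe sets ranged from -0.14 to 0.65. FGFR4 ranked 18 and FGFR1 ranked 24 of the 36. The median over the 56 genes was 0.02, beside 0 over all genes.

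**Figure D3:**
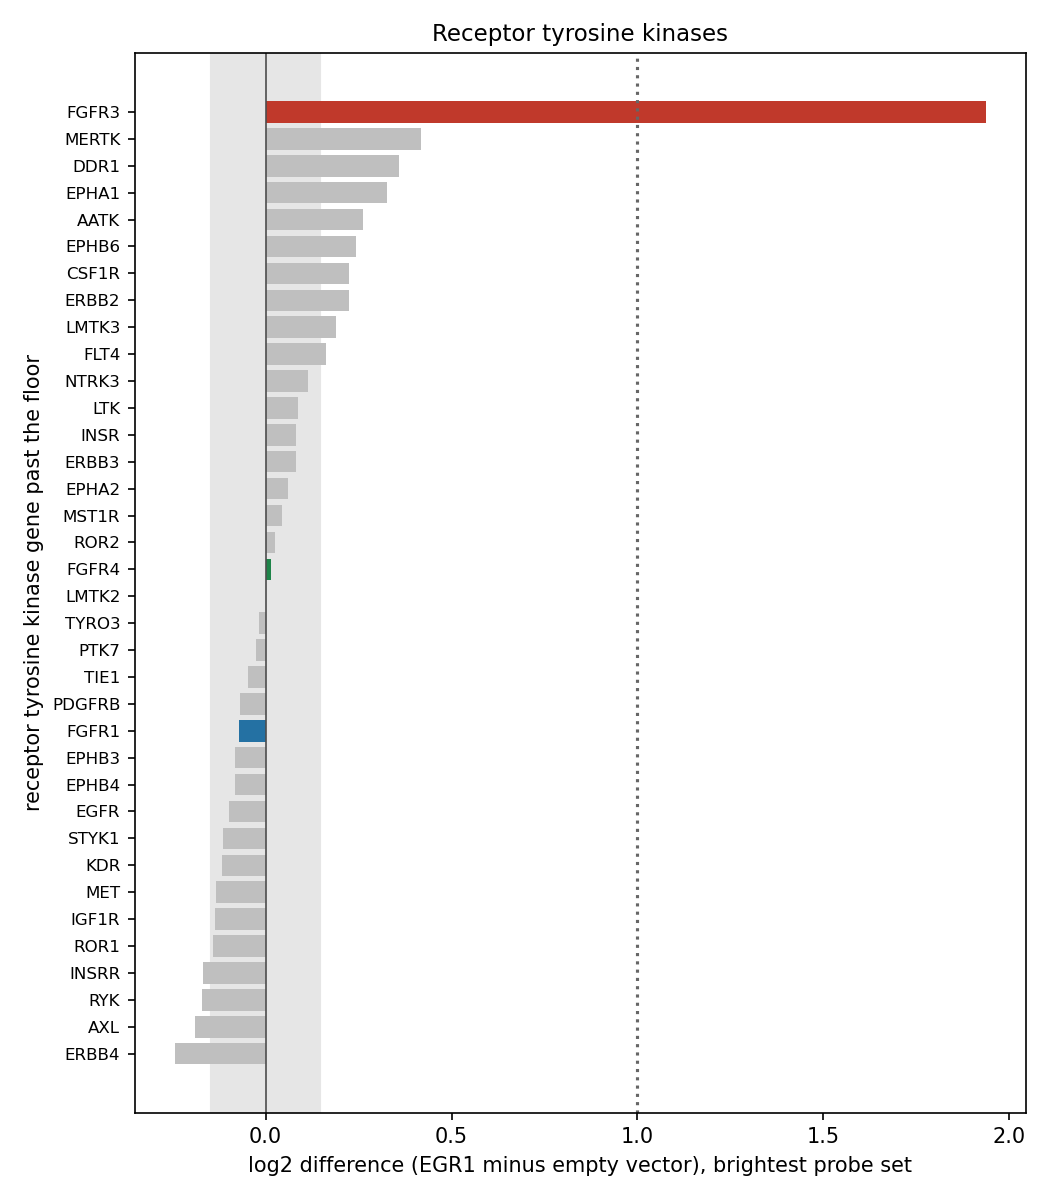
Log2 difference, EGR1 minus empty vector (x axis), of the 36 receptor tyrosine kinase genes past the floor (y axis), each read by its brightest probe set, with FGF receptors in colour. The shaded band is the pooled SD of 0.15 on either side of 0 and the dotted line is 2-fold, and FGFR3 at 1.94 is followed by MERTK at 0.42.

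The remaining genes of the pathway were read by role, in lists chosen with earlier results of these arrays known. Secreted ligands differed little. Of 17 ligand genes other than FGF2, 6 were past the floor, and none of these was at or beyond 1.5-fold. The median was 0.08 over all 17 and -0.10 over the 6 past the floor. FGF17 had -0.29, FGF5 -0.25 and FGF8 0.18, each by its brightest probe set. FGF5, which halts hair growth in mammals, read 7.19 in the EGR1 array and 7.43 in the empty-vector array, and all 6 of its probe sets lay below 0, from -0.44 to -0.06. The FGF17 probe sets went both ways. The 4 intracellular FGF homologous factors, which bind sodium channels and not receptors, had a median of 0.03 over all 4 and 0.14 over the 2 past the floor, with FGF11 at 0.24 and FGF12 at 0.05.

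Coreceptors and FGF-binding surface proteins had a median of 0.13 over 22 measured genes and 0.08 over the 9 past the floor. Of the 22 genes 17 were above 0 and 4 below, but 13 were under the floor, and none of the 9 past it reached 1.5-fold. Over all probe sets on the array 45.9% were above 0. SDC4, a heparan sulfate proteoglycan that presents FGF2 to its receptors, read 10.27 in the EGR1 array and 9.73 in the empty-vector array. Its 3 probe sets ran from 0.37 to 0.53, all above the pooled SD. GPC1, a lipid-anchored proteoglycan, had 0.37, with 0.26 in its other probe set, and GPC6 had -0.17 with probe sets on both sides of 0. Genes of heparan sulfate synthesis and editing had a median of -0.05, with 8 of 20 above 0 and none of the 13 past the floor at 1.5-fold. GLCE, which epimerises glucuronic acid in the chain, had 0.36 by its 1 probe set, the chain polymerase gene EXT1 had -0.25 and the heparanase gene HPSE -0.29.

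Downstream, the adaptor and MAP kinase list had a median of 0, with 9 of the 19 genes analysed here above 0, 9 below and none at 1.5-fold. SHC1, an adaptor of receptor tyrosine kinases, had 0.27, the ERK gene MAPK3 0.26 and the ribosomal S6 kinase gene RPS6KA3 0.21. Among 16 negative feedback genes 8 were above 0 and 7 below, with a median of 0.04. LRIG1, known chiefly as a brake on ERBB receptors, was the 1 of 14 past the floor at 1.5-fold, at 6.80 in the EGR1 array and 5.95 in the empty-vector array, and its other probe set had 0.14. Over all genes past the floor 0.941% were 1.5-fold higher. SPRED3, an inhibitor of the RAS pathway, had 0.30 and the ERK phosphatase gene DUSP5 0.28. The rest of the Sprouty and dual-specificity phosphatase genes in the list, which ERK signalling induces, were added after their values were seen and went both ways. SPRY1 had 0.18, SPRY4 0.12, SPRY3 0.08 and SPRY2 -0.05, and DUSP4 had 0.26, DUSP6 -0.13 and, under the floor, DUSP7 -0.10. Probe sets of SPRED3, SPRY1 and DUSP6 lay on both sides of 0.

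Transcriptional outputs shared by FGF and other ERK-activating signals had a median of 0.05, with 12 of 18 above 0. Of the 17 past the floor 2 reached 2-fold, both higher in the EGR1 array, and KLF10, a TGF-beta-inducible repressor, came just under it. Over all genes past the floor 0.348% were 2-fold higher. IER3 read 12.05 in the EGR1 array and 10.47 in the empty-vector array, a difference of 1.58. FOS read 10.22 in the EGR1 array and 9.12 in the empty-vector array, a difference of 1.10, and KLF10 had 0.99. The 4 FOS probe sets ran from 0.75 to 1.10, so FOS did not reach 2-fold in each of them. These 3 are immediate-early genes that many stimuli induce. The ETS factors ETV4, ETV5 and ETV1, used as readouts of FGF receptor activity, were chosen after their values were seen and had 0.40, -0.03 and -0.29, so they shared no direction.

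**Figure D4:**
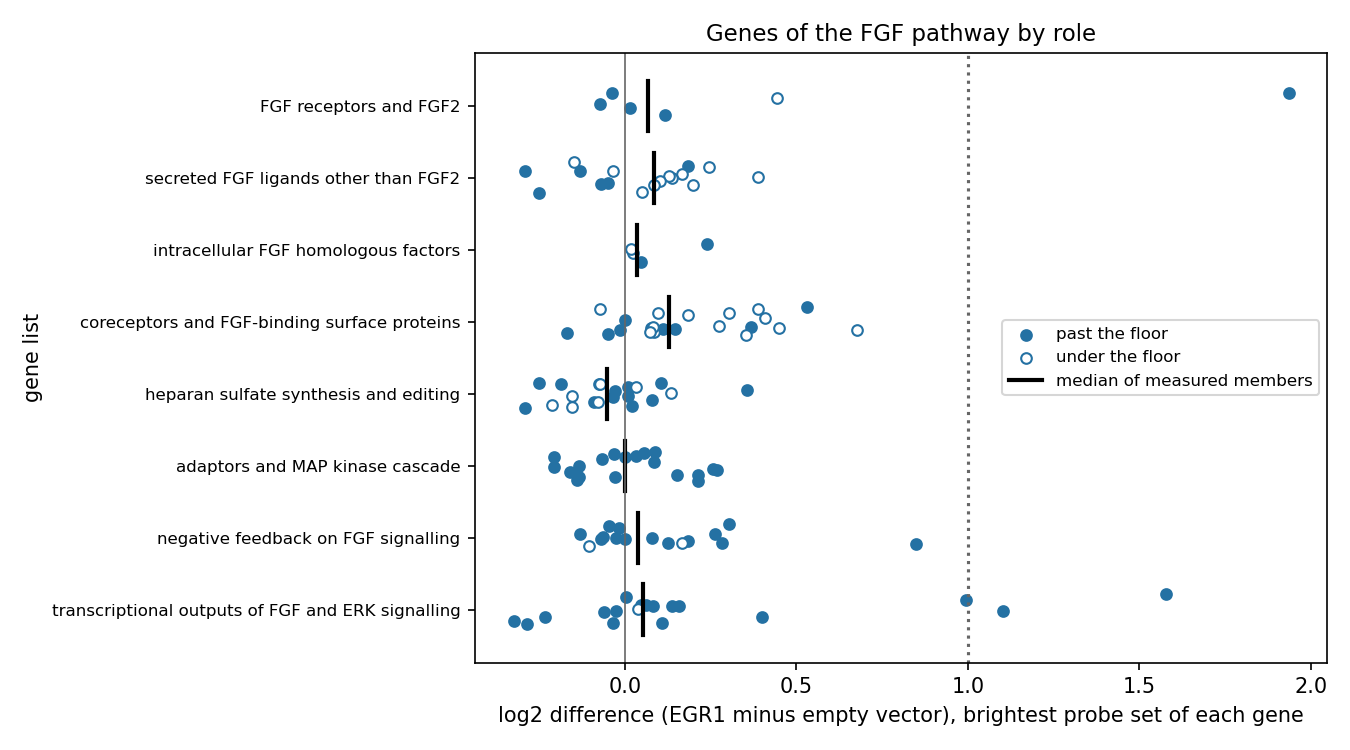
Log2 difference, EGR1 minus empty vector (x axis), of each measured gene by its brightest probe set in 8 lists (y axis), with filled points past the floor, open points under it and a bar at the list median. Medians lie between -0.05 and 0.13, and the points at or beyond the dotted 2-fold line are FGFR3, IER3 and FOS.

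The labelled cell type was checked against marker genes. Of 6 simple-epithelium genes 4 were past the floor. KRT8 and KRT18 were higher in the EGR1 array (differences of 2.00 and 1.76), KRT19 had 0.24, and KRT7 was lower, at 5.20 in the EGR1 array and 5.75 in the empty-vector array. The adhesion genes CDH1 and EPCAM, named after their values were seen, were below the floor in both arrays. Of 7 lung epithelial genes 5 were past the floor. The lineage factor NKX2-1 read 6.38 in the EGR1 array and 6.08 in the empty-vector array. The protease gene NAPSA read 6.88 in the EGR1 array and 6.67 in the empty-vector array. For the surfactant gene SFTPC the levels were 6.27 in the EGR1 array and 6.41 in the empty-vector array. SCGB1A1 and SFTPA1, named after their values were seen, were below the floor in both arrays. The mean level of the 7 was 5.69 in the EGR1 array and 5.60 in the empty-vector array. The median over all probe sets was 5.79 in the EGR1 array and 5.77 in the empty-vector array.

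Some markers of other cell types were also past the floor, which is a rank of brightness and no detection call. Of 5 leukocyte genes measured these were CD68, a lysosomal protein gene, at 8.36 in the EGR1 array and 8.24 in the empty-vector array, and CD3E at 5.49 in the EGR1 array and 5.18 in the empty-vector array. PTPRC, CD14 and LYZ were below it. Of 6 fibroblast genes PDGFRB was past the floor, at 6.04 in the EGR1 array and 6.11 in the empty-vector array, and the collagen, DCN and LUM genes were below it by their mean level. Of 6 endothelial genes PECAM1 (0.20), VWF (-0.01) and KDR (-0.12) were past it, and CDH5, CLDN5 and TEK were not. The markers below the floor were named after their values were seen. The mean level of the leukocyte genes was 4.74 in the EGR1 array and 4.70 in the empty-vector array. That of the fibroblast genes was 4.36 in the EGR1 array and 4.37 in the empty-vector array, and that of the endothelial genes 4.91 in the EGR1 array and 4.89 in the empty-vector array. The part of other cells in the FGFR3 difference was not tested.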

How the data were processed

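Total RNA of H1299 cells was hybridised as biotin-labelled cRNA to Affymetrix arrays, per the labels' protocols, with 1 array per group. The authors deposited 1 log2 level per probe set, obtained by RMA according to the submitters' processing notes. For software version, settings and genome build the sources used here give nothing. The quartiles were 4.32, 5.79 and 7.47 in the EGR1 array and 4.28, 5.77 and 7.50 in the empty-vector array.

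Probe sets were named through GEO's platform annotation, with symbols updated by Entrez ID to RefSeq (GRCh38.p14). Of 49395 probe sets 102 were controls, 44988 had 1 symbol, of which 44961 matched RefSeq, 1832 had several and 2473 had none. No probe set with several symbols included a family gene. A gene was read by its brightest probe set (highest mean level). In each list the genes past the floor at or beyond 1.5-fold and the 3 with the largest absolute difference were named; others are said to be chosen afterwards. The 4 genes next to FGFR3 in rank on either side and the nearest genes on the chromosome were read by rule. The members, lists and rules were chosen with earlier results of these data known. There was no test and no p-value. Promoter sequences are RefSeq's; 5 of the 6 family genes had an entry. The procedure was tested on simulated data. Python 3.11.15, pandas 2.3.3 and statsmodels 0.14.6 were used.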

Additional observations from a re-analysis of the deposited data

How the results depend on the processing

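No paired analysis was possible because each group held 1 array. Alternatives were judged against the pooled SD of 0.15. The FGFR3 difference of 1.94 was 1.14 with the mean or the median of its probe sets and 0.35 with the second brightest probe set, and it was 1.92 after a lowess correction and 1.93 after quantile normalization. FGFR2, 0.44 by its brightest probe set, was 0.0740 with the mean, 0.0911 with the median and 0.11 without _x_at and _s_at probe sets or with the second brightest, and FGFR4 was 0.18 under the last of these settings and without _x_at and _s_at probe sets. FGFR1, FGFRL1 and FGF2 moved by less than the pooled SD under the 6 alternatives tried and kept their sign. The 1 gene at or beyond 2-fold lower became 0 with the mean or median of probe sets and with a floor at the 60th percentile, and the 44 higher ranged from 32 to 53. With the floor at the 60th percentile FGF5 (-0.25) was the only secreted ligand past it and FGF11 (0.24) the only intracellular factor. These list medians are thus values of 1 gene each. FGFR3, at percentile 53.8 of mean level, and FGFR2 also fell below that floor, and the family median there was -0.01. Under that floor FGFR3 has no rank and no place in the counts of genes past it. The sign changes of the family and ligand medians, given next, came with that floor. The direction of the list medians is not settled: those of the family, the ligands, the intracellular factors, the feedback genes, the outputs and the receptor tyrosine kinases changed sign under 1 to 3 of 7 alternatives. Lowess and quantile normalization moved the median of all genes by 0.01 each.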
